A study of Mus musculus with 6 samples.

Results

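The 35 genes described here are immediate early genes and fast-responding targets of neuronal activity, taken by symbol from the 32285 genes counted in each library. All 35 were present in all 6 libraries. The libraries came from frontal lobe nuclei of Tg-SwDI mice, whose transgene is a human APP carrying 3 familial changes named Swedish, Dutch and Iowa. SwDI/TKO mice (3 libraries) are Tg-SwDI mice with a Trem2 knockout, and SwDI/TWT mice (3 libraries) are Tg-SwDI mice with wild-type Trem2, so the transgene was shared by both groups. One library was made per mouse by droplet-based 3′ single-nucleus RNA sequencing, which counts transcripts by unique molecular identifiers (UMIs). The labels name no age, sex, batch, dissection order or Trem2 allele design. Nor do they describe behaviour or stimulation before death. Trem2 encodes a receptor of microglia.

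Immediate early genes are transcribed within minutes of calcium entry, growth factor signalling or cell stress, without new protein synthesis. Transcription factors that are already present, among them CREB at cyclic AMP response elements and serum response factor at CArG boxes, switch them on. Their products are either transcription factors that act on later genes or effectors at the synapse, and in neurons they are widely read as a trace of recent firing. In dissociated brain tissue the same genes can also be induced by handling. The 35 genes fall into 6 groups by role: 8 AP-1 family genes (Fos, Fosb, Fosl2, Jun, Junb, Jund, Atf3 and Maff), 4 EGR zinc-finger factors, 3 NR4A nuclear receptors, 4 other transcription factors (Npas4, Klf2, Klf4 and Csrnp1), 10 intracellular feedback and signalling genes, and 6 synaptic or secreted effectors (Arc, Homer1, Bdnf, Nptx2, Vgf and Inhba). A core set of 14 genes (Fos, Fosb, Junb, Egr1 to Egr4, Arc, Npas4, Nr4a1, Nr4a3, Btg2, Ier2 and Dusp1) holds the most commonly used members. All results compare summed counts between libraries or between classes within a library, and levels are not compared between genes.

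The promoters of 5 members are shown because CREB-type elements, a feature the choice of genes did not use, were found in a larger share of the members' windows than of all windows. RefSeq (GRCm38.p6) gave promoter windows for 28 of the 35 genes, 45 windows in all, and the 250 bases upstream of each start were searched on both strands. The half-site TGACG, which is also part of the full element, was found in 27 of the 45 windows (60%, in 20 genes), against 17.8% of all 32851 windows of that length. The full element TGACGTCA was found in 4 windows (8.89%, of Arl5b, Btg2, Dusp1 and Maff), against 1.55% of all windows. The CArG box was found in 4 windows (8.89%), all of Egr2, against 1.47% of all windows. Such matches describe letters and show no binding. Capitals mark the half-sites on either strand (TGACG or its reverse complement) in Fos (chr12:85473640-85473889, plus strand), Junb (chr8:84978749-84978998, minus strand), Npas4 (chr19:4989972-4990221, minus strand) and Nr4a1 (chr15:101266596-101266845, plus strand), the windows of these last 2 at a start inside the annotated gene, and the full element in Btg2 (chr1:134079156-134079405, minus strand).
Fos: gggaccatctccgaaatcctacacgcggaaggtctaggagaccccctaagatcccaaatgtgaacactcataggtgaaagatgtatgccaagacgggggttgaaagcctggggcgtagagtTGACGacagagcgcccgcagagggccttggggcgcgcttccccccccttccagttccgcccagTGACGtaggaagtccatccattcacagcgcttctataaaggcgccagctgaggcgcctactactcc
Junb: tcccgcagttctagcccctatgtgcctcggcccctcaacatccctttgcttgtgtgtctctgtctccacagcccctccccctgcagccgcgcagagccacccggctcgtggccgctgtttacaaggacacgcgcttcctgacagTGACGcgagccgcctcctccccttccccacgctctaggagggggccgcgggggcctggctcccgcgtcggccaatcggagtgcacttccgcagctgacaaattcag
Npas4: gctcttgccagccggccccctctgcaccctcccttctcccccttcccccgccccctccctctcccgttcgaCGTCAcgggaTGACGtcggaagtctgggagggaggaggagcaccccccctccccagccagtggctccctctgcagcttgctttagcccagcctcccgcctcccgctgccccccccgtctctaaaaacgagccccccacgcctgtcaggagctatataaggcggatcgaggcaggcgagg
Nr4a1: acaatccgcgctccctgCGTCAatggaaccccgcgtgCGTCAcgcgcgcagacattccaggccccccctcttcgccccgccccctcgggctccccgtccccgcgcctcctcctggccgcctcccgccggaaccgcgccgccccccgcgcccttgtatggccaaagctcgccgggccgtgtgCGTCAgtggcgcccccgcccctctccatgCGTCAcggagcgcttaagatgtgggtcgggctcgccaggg
Btg2: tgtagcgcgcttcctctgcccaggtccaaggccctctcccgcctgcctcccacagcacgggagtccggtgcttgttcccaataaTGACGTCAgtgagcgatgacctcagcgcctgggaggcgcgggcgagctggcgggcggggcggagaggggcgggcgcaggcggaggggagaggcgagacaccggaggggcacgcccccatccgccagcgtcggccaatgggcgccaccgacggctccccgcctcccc
The Fos and Npas4 windows each held 2 half-sites, the Nr4a1 window 4, the Junb window 1 and the Btg2 window the full element.

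The libraries held 39752 barcodes, between 5220 and 8095 each, where the series states 5700 to 8100 nuclei per sample. After filtering, 33135 nuclei remained, and nuclei of 8 classes were named from marker genes: cortical excitatory neurons, interneurons, D1 and D2 striatal projection neurons, astrocytes, oligodendrocytes, oligodendrocyte precursors (OPC) and microglia. Every marker of a class's own list had UMIs in all 6 libraries, with none at 0, which is no independent check because the classes were named from these markers. A marker gate, which names single nuclei by their own marker UMIs, gave 40 excitatory nuclei in SwDI/TKO replicate 1, where the clusters gave 1749. In the other libraries the gate gave 300 to 589. SwDI/TKO replicate 1 stood apart: it was counted with Cell Ranger 7.0.0 and the other 5 libraries with 6.1.2, and it held 51317961 UMIs against 11493087 to 17835287 in the others. Over all nuclei its normalized level was below the mean of SwDI/TKO replicates 2 and 3 for 28 of the 35 genes and above it for 7, and the ratio rose with the intron length of the gene (Spearman rho 0.644 over 35 genes, as a description). Homer1, with 93519 intron bases, was 2.01 times that mean, and Npas4, with 1826, was 0.195 times it. Gene-level genotype tests are therefore given over 6 libraries and mostly also over the 5 libraries of 1 software version, while sums and shares are given per library. Trem2 in microglia had 173, 659 and 429 unscaled CPM (UMIs over all UMIs of the class) in SwDI/TKO replicates 1 to 3, against 1619, 1358 and 869 in SwDI/TWT replicates 1 to 3, lower in every SwDI/TKO library but not at 0.

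Most members differed between cortical excitatory neurons and interneurons, with the effectors and nuclear receptors higher in excitatory neurons. Counts summed per library and class were compared with edgeR's quasi-likelihood test with the library as a block, Benjamini-Hochberg adjustment and a threshold of 0.05, for the 28 members and 12727 genes that passed the filter on low counts. Fosb, Atf3, Maff, Egr2, Klf4, Csrnp1 and Sik1 did not pass it. In excitatory neurons against interneurons 18 members were higher and 3 lower, with a median log2 difference of 0.88, where 20.1% of all genes tested were higher and 19.2% lower. All 3 NR4A receptors, 2 of the 3 EGR factors tested and 5 of the 6 effectors were higher. Of these 21 calls, 13 held under every alternative setting in which the gene was tested and 16 without each library in turn. With classes from a marker gate the calls of Dusp6 (0.52), Inhba (0.29), Npas4 (0.43), Per1 (0.51), Btg2 (0.59) and Fos (-0.62) were lost.

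Bdnf, a secreted neurotrophin, had the largest difference. Its normalized level, in CPM with TMM scaling (counts as a share of the scaled library size) as for all single genes below, was 32.8, 31 and 81.4 in excitatory neurons of SwDI/TKO replicates 1 to 3 and 56.1, 77.6 and 78.3 in those of SwDI/TWT replicates 1 to 3, against 3.18, 3.05 and 4.84 and 5.24, 5.96 and 8.35 in interneurons. The 2 classes did not overlap (log2 difference 3.73, SE 0.26, adjusted p = 9.3e-18). Arc, which encodes a cytoskeletal protein of active synapses, had 13.3, 8.13 and 45.6 CPM in excitatory neurons of the SwDI/TKO libraries and 46.4, 44.0 and 21.2 in those of the SwDI/TWT libraries. Its interneuron levels ran only to 6.55, and it was not counted in interneurons of SwDI/TKO replicate 3 (3.07, SE 0.33, adjusted p = 2.4e-11). Arc also had reads where neuronal RNA should be absent: its level in oligodendrocytes was 4.98 to 27.7 CPM. Egr3, a zinc-finger factor, was higher by 2.56 (SE 0.24) and Homer1, a postsynaptic scaffold whose short activity-induced form is not separated from the long forms here, by 2.11 (SE 0.15). Nr4a2, an orphan nuclear receptor that also marks a subset of deep cortical neurons, was higher by 3.31 (SE 0.38), with 14.7 to 79.4 CPM in excitatory neurons and 1.31 to 8.35 in interneurons. All of these were higher in 6 of 6 libraries.

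Vgf, which encodes a secreted neuropeptide precursor, ran the other way. It was lower in excitatory neurons than in interneurons in 6 of 6 libraries (log2 difference -1.10, SE 0.14, adjusted p = 1.6e-09). Fos, the partner of Jun proteins in AP-1, and Ier2, a nuclear protein of the fast response, were the other 2 members lower in excitatory neurons (-0.69, SE 0.26, and -0.90, SE 0.31). The Fos call was lost without any of 4 libraries: adjusted p was 0.054 without SwDI/TKO replicate 1, 0.23 without SwDI/TKO replicate 3, 0.11 without SwDI/TWT replicate 1 and 0.083 without SwDI/TWT replicate 3. The Ier2 call was lost without SwDI/TWT replicate 2 (0.056) or replicate 3 (0.10). Npas4, a factor induced by calcium entry and found mainly in neurons, was higher in excitatory neurons by 1.0 (SE 0.34), a call lost without SwDI/TWT replicate 2 (0.91, adjusted p = 0.066). The same held for Btg2, an antiproliferative gene of the fast response, without each of 4 libraries (0.58 to 0.77, adjusted p 0.053 to 0.080), and for Arl5b, a small GTPase, without each of 4 (0.38 to 0.46, adjusted p 0.056 to 0.13).

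D1 and D2 striatal projection neurons, which carry the direct and indirect pathways, showed no called difference. No member passed the edgeR test between D1 and D2 neurons in either direction, where 1.21% of all genes were higher and 0.801% lower. The median log2 difference of the 28 members was -0.42. Fos had the widest difference among AP-1 genes, with -1.14 (D1 minus D2), but was counted in few nuclei of either class. Its levels were 2.95, 0 and 9.45 CPM in D1 neurons and 1.28, 4.15 and 23.2 in D2 neurons of the SwDI/TKO libraries, and 3.25, 1.68 and 3.51 in D1 and 12.9, 4.99 and 1.15 in D2 neurons of the SwDI/TWT libraries. The groups overlapped.

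Excitatory neurons against the mean of the 2 striatal classes gave 14 members higher and 2 lower, where 25.4% of all genes were higher and 22.2% lower. Nr4a2 (4.46, SE 0.37), Klf2 (3.78, SE 0.77) and Bdnf (3.70, SE 0.22) led, though Klf2 did not pass the filter on low counts without SwDI/TKO replicate 1. Bdnf had 1.84 to 5.6 CPM in D1 neurons and 2.16 to 8.31 in D2 neurons over the 6 libraries. The EGR factors did not follow this pattern: none of the 3 tested passed, and Egr3 had 7.86, 21.2 and 40.9 CPM in D1 neurons of SwDI/TKO replicates 1 to 3 and 38.9, 24.6 and 19.7 in those of SwDI/TWT replicates 1 to 3, levels that overlapped those of excitatory neurons. Inhba, a subunit of activin, was lower in excitatory than in striatal neurons (-1.42, SE 0.20, adjusted p = 2.3e-08). It had 16.5 to 33.8 CPM in excitatory neurons of SwDI/TKO libraries and 13.6 to 28.9 in those of SwDI/TWT libraries, and 33.2 to 81.5 and 35.1 to 62.2 in D1 neurons. Tiparp, a mono-ADP-ribosyltransferase, was the second gene lower in excitatory neurons (-0.92, SE 0.16). Both were lower in 6 of 6 libraries. Of the 16 calls, 13 held without each library: Fos lost its call without SwDI/TWT replicate 2 (0.60, adjusted p = 0.082), Nr4a1 without SwDI/TKO replicate 1 or SwDI/TWT replicate 2 (0.39 and 0.35), and Fosl2 without SwDI/TKO replicate 3, SwDI/TWT replicate 2 or SwDI/TWT replicate 3 (0.52 to 0.61).

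The neuronal classes against the glial classes split part of the list by role. In neurons 10 members were higher and 9 lower, where 37.8% of all genes were higher and 31.1% lower. Of the EGR, NR4A and effector genes 7 of 12 tested were higher in neurons and none lower, and of the 9 feedback and signalling genes tested 6 were lower and none higher. The other groups went both ways: of 5 AP-1 genes tested 2 were higher and 2 lower, and of 2 other transcription factors 1 was higher and 1 lower. Homer1 (2.0, SE 0.10), Npas4 (2.0, SE 0.36), Egr3 (1.94, SE 0.23) and Vgf (1.68, SE 0.12) led the neuronal side. Jun, the AP-1 subunit that is also a stress response gene, was lower in neurons (-1.99, SE 0.19, adjusted p = 7.9e-14): it had 62.2 to 118 CPM in astrocytes and 66.2 to 172 in OPC, against 8.73 to 40.5 in excitatory neurons. The Jun levels of oligodendrocytes, given with the glial classes below, overlapped those of excitatory neurons. Dusp6, a phosphatase that restrains ERK, was also lower (-1.68, SE 0.23), and its microglial levels were 65.1, 130 and 109 CPM in SwDI/TKO and 125, 133 and 159 in SwDI/TWT libraries. Tiparp was also lower in neurons (-0.56, SE 0.14), with 108 to 249 CPM in astrocytes of SwDI/TKO libraries and 143 to 223 in those of SwDI/TWT libraries. Klf2 was lower by the widest margin (-2.71, SE 0.78), but with classes from a marker gate it was -1.03 with an adjusted p of 0.053, and it was not tested without SwDI/TKO replicate 1. The astrocyte class of that library held a cluster of 35 of its 394 nuclei that was led by Bnc2, Eya2 and Mgp, with no astrocyte marker among its top 10 genes by fold, and that of SwDI/TWT replicate 1 held another of 29 of 232 led by Sash1, Fabp7 and Fmo1. In astrocytes Klf2 had 38 UMIs in SwDI/TKO replicate 1, and 0 once these clusters were left out, an alternative chosen after seeing the data in which Klf2 no longer passed the filter on low counts, so that 8 members were lower in neurons and 10 higher. Junb was called as higher in neurons (0.40, SE 0.16). Without SwDI/TKO replicate 3, SwDI/TWT replicate 1 or SwDI/TWT replicate 2 its adjusted p was 0.15, 0.051 and 0.061. The plot of class differences shows all 28 members tested in the 4 comparisons.

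**Figure D1:**
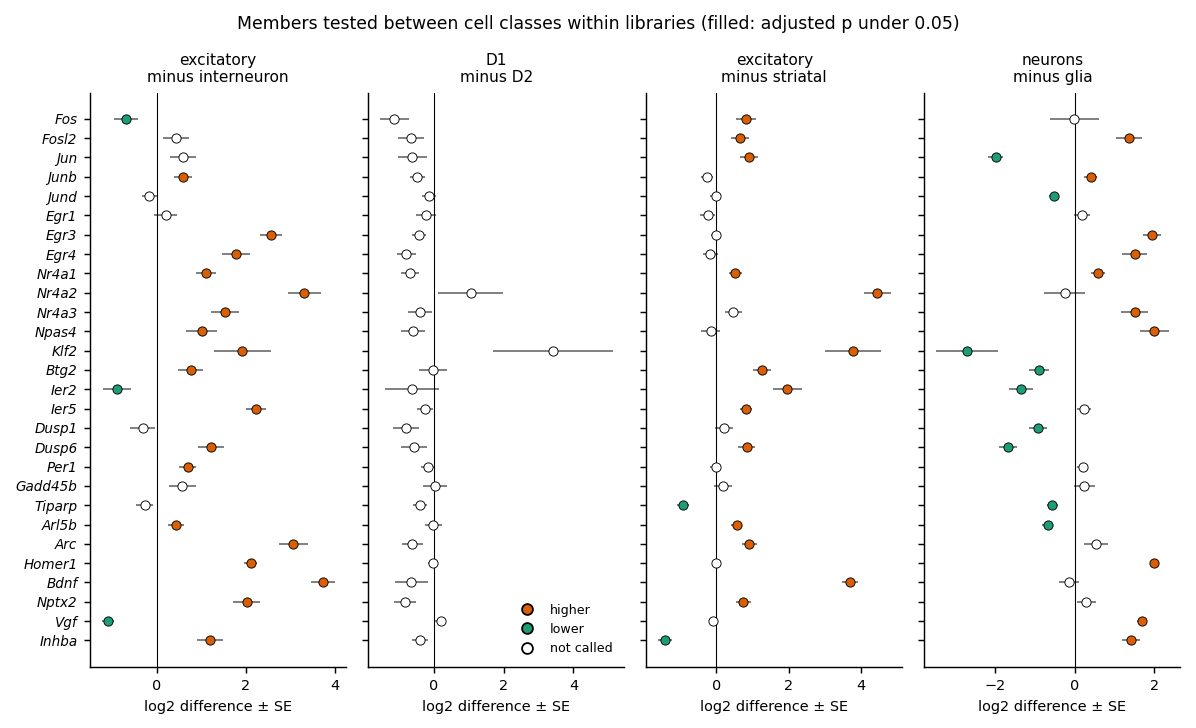
Log2 differences with standard errors of the 28 members tested, from the edgeR fit with the library as a block, in 4 comparisons between cell classes. Filled points passed an adjusted p of 0.05. Most effectors and NR4A receptors lie to the right between excitatory neurons and interneurons, D1 and D2 neurons hold no filled point, and 6 of the 9 feedback genes are filled and left of 0 between neurons and glia.

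Between genotypes, with the filter on low counts, no member passed the adjusted threshold in any of the 8 classes or over all nuclei, over 6 libraries or over 5, with edgeR or with DESeq2. Few other genes did: 0% of genes were called in every 6-library edgeR fit with that filter, and over 5 libraries 0.0125% in oligodendrocytes, 0.0587% in OPC and 0% in the other classes and over all nuclei. On simulated data the 6-library test made no calls in excitatory neurons, in D2 neurons or over all nuclei even for large changes, so the lack of calls there does not show that the genotypes did not differ. Over 5 libraries the test recovered 81%, 79% and 77% of simulated 4-fold changes there, but only 20%, 16% and 22% of 2-fold changes. In microglia the 6-library test recovered 62% of 4-fold and 8% of 2-fold changes. In excitatory neurons 1 of the 32 members tested had an unadjusted edgeR p under 0.05 over 6 libraries (2 with DESeq2), where 4.83% of all genes did, and 1 over 5 libraries, where 3.08% did. The signs leaned one way. Of those 32 members 28 were lower in SwDI/TKO excitatory neurons over 6 libraries, with a median log2 change of -0.47, where 45.3% of all genes were lower. Over 5 libraries 24 were lower, with a median of -0.18, where 48.4% of all genes were lower. Members share regulation and a library, so this count is not a count of independent genes.

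The core genes show what lies behind that median. In excitatory neurons Fos had 3.13, 4.28 and 18.7 CPM in SwDI/TKO replicates 1 to 3, against 11.9, 11.3 and 10.6 CPM in SwDI/TWT replicates 1 to 3. SwDI/TKO replicates 1 and 2 lay below every SwDI/TWT library and replicate 3 above every one, so the groups overlapped (log2 change -0.46, SE 0.67). Junb, another AP-1 subunit, had 17.9, 25 and 85.6 CPM in the SwDI/TKO libraries, against 57.8, 48.9 and 38.2 CPM in the SwDI/TWT libraries, with replicates 1 and 2 again lowest and replicate 3 highest. Fosb, also an AP-1 subunit, had 1.89, 2.35 and 8.94 CPM in SwDI/TKO libraries, against 13.9, 7.06 and 10.2 CPM in SwDI/TWT libraries. Here SwDI/TKO replicate 3 lay inside the SwDI/TWT range (log2 change -1.38, SE 0.64). All 6 AP-1 genes tested had a log2 change below 0 over 6 libraries, and 3 of the 6 over 5 libraries.

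Among the EGR factors SwDI/TKO replicate 2 was the lowest library. Egr1, a zinc-finger factor induced by synaptic plasticity, had 11.8, 8.35 and 59.2 CPM in SwDI/TKO excitatory neurons, against 35.4, 27.3 and 15.1 CPM in SwDI/TWT ones (log2 change -0.02, SE 0.73). Egr3 had 18.9, 13.7 and 54.1 CPM, against 62.9, 30.6 and 21.5 CPM in SwDI/TWT neurons. Egr4 had 5.52, 2.57 and 37.1 CPM, against 19.3, 17.2 and 12.9 CPM in SwDI/TWT neurons. In each of the 3 genes SwDI/TKO replicates 1 and 2 were the lowest of all 6 libraries. SwDI/TKO replicate 3 was the highest for Egr1 and Egr4, and SwDI/TWT replicate 1 for Egr3. Egr2, which was too low for the test, had 0.66, 0.64 and 2.98 CPM in SwDI/TKO libraries, against 1.42, 1.88 and 1.51 CPM in SwDI/TWT libraries.

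Among the nuclear receptors Nr4a1 had 57.5, 25.5 and 43.0 CPM in SwDI/TKO excitatory neurons, against 64.3, 58.3 and 34.0 CPM in SwDI/TWT ones, and Nr4a3 had 13.7, 11.3 and 18.7 CPM, against 14.2, 9.41 and 16.6 CPM. Both groups of both genes overlapped, and SwDI/TKO replicate 1 was not among the low libraries for either gene. Npas4 had 6.09, 15 and 36.2 CPM in SwDI/TKO libraries, against 31.7, 22.6 and 34.0 CPM in SwDI/TWT libraries (log2 change -0.67, SE 0.59). Arc had a lower mean in SwDI/TKO libraries, with the levels given above, and a log2 change of -0.78 (SE 0.64). Btg2 had 8.73, 8.99 and 82.2 CPM in SwDI/TKO libraries, against 43.9, 31.8 and 31.4 CPM in SwDI/TWT libraries. Dusp1, a phosphatase that ends MAP kinase signals, had 6.67, 5.14 and 17.0 CPM, against 19.3, 17.4 and 9.83 CPM in SwDI/TWT libraries. Ier2 had 2.96, 1.93 and 4.69 CPM, against 6.80, 4.23 and 3.40 CPM in SwDI/TWT libraries. For Npas4, Btg2, Dusp1 and Ier2 SwDI/TKO replicates 1 and 2 were the 2 lowest of the 6 libraries, while replicate 3 lay within or above the SwDI/TWT range.

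**Figure D2:**
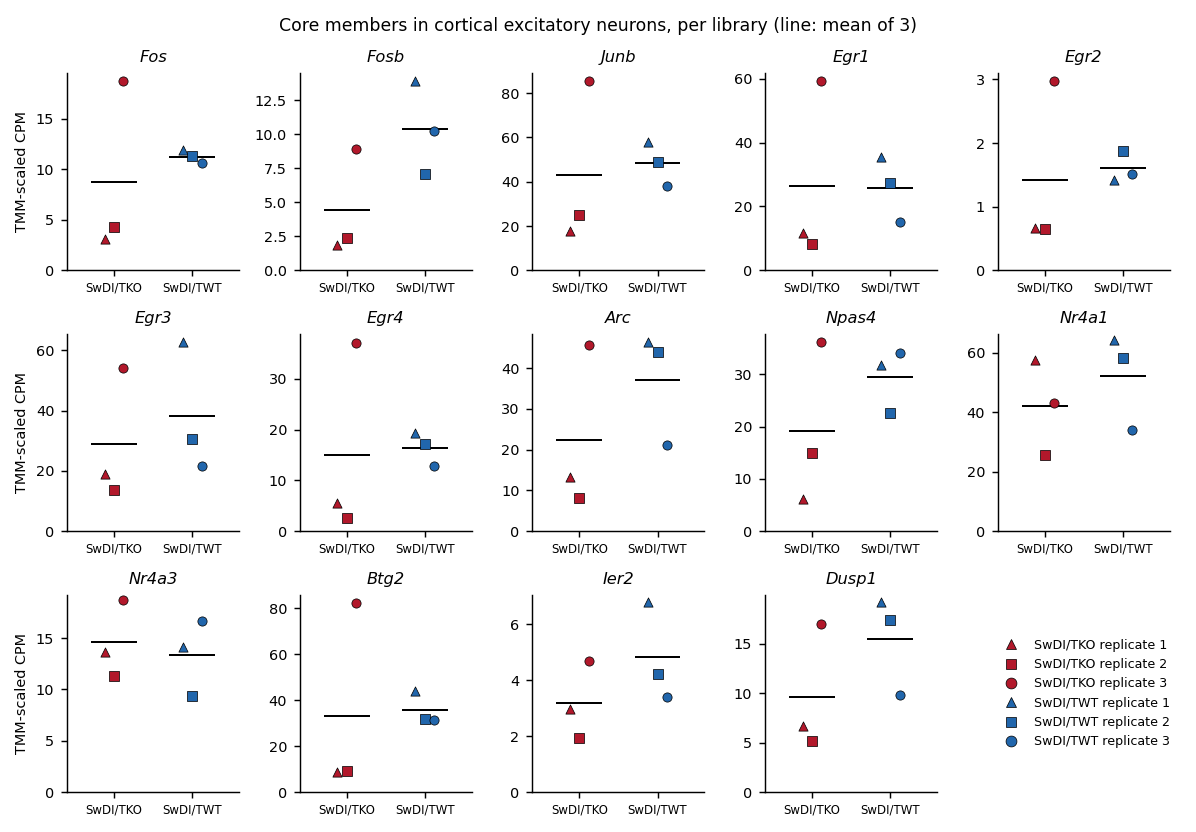
Normalized level (TMM-scaled CPM, linear axis from 0) of the 14 core genes in cortical excitatory neurons, 1 point per library and a line at the mean of 3. SwDI/TKO replicate 3 (red circle) lies far above replicates 1 and 2 in most panels, for example 82.2 against 8.73 and 8.99 CPM for Btg2, and most SwDI/TWT libraries lie between them.

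SwDI/TKO replicate 3 moved the genotype difference more than any other library left out in excitatory neurons. Over the 35 members in excitatory neurons it was the highest library for 17, and SwDI/TKO replicates 1 and 2 were the lowest for 15 each. It exceeded SwDI/TKO replicate 2 for 34 of 35 members, with a median log2 ratio of 1.39, and over all nuclei for 30, with a median of 0.95. Without SwDI/TKO replicate 3, 29 of the 32 members tested in excitatory neurons were lower in SwDI/TKO, the median was -1.30, and 22 had an unadjusted edgeR p under 0.05, where 16% of all genes did. No member passed the adjusted threshold in that fit either. The same library had the smallest excitatory class, 410 nuclei against 1749 and 1210 in SwDI/TKO replicates 1 and 2 and 1031, 1335 and 749 in the SwDI/TWT libraries. Rorb, a layer 4 marker, had 120.0, 204 and 74.3 unscaled CPM in SwDI/TKO excitatory neurons, against 209, 290 and 144 in the SwDI/TWT libraries. Other layer markers had other orders. Cux2 had 99.7, 68.1 and 74.3, against 51.8, 74.8 and 38.2. Fezf2 had 16.1, 73.9 and 13.8, against 36.3, 36.5 and 31.8. Tbr1 had 26.7, 58.7 and 59.6, against 50.9, 47.0 and 38.2. The part of layer make-up in the member levels was not tested.

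The summed level of the 35 members ranked the libraries as the sum of heat shock genes did over all nuclei. The 35 genes together took 727, 672 and 1700 unscaled CPM in SwDI/TKO excitatory neurons, against 1347, 1302 and 1105 in SwDI/TWT ones (mean 1033 ± 578 against 1251 ± 129, SD, n = 3 each). Without Homer1, the long-intron gene raised in SwDI/TKO replicate 1, the sums there were 340, 482 and 1392, against 1053, 1028 and 796. SwDI/TKO replicate 1 was then the lowest library. The 11 heat shock and chaperone genes of a separate list took 482, 580 and 1880 unscaled CPM there, against 1205, 947 and 820. Over all nuclei the 35 genes took 638, 804 and 1418 unscaled CPM in SwDI/TKO libraries, against 1280, 1063 and 913 in SwDI/TWT libraries, and fewer nuclei of an expressing class and less RNA per nucleus cannot be told apart in that sum. The heat shock genes took 601.5, 751.3 and 2154, against 1552, 1125 and 907. Over all nuclei both lists rank the 6 libraries in the same order, with SwDI/TKO replicate 3 and SwDI/TWT replicate 1 at the top. The share of mitochondrial UMIs was 0.73%, 0.83% and 2.17% in SwDI/TKO libraries, against 1.45%, 1.22% and 0.69% in SwDI/TWT libraries, and the filter at 5% had removed 4.62%, 9.48% and 29.99% of barcodes, against 15.5%, 17.8% and 6.33%. The part of RNA quality or tissue handling in the member levels was not tested.

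**Figure D3:**
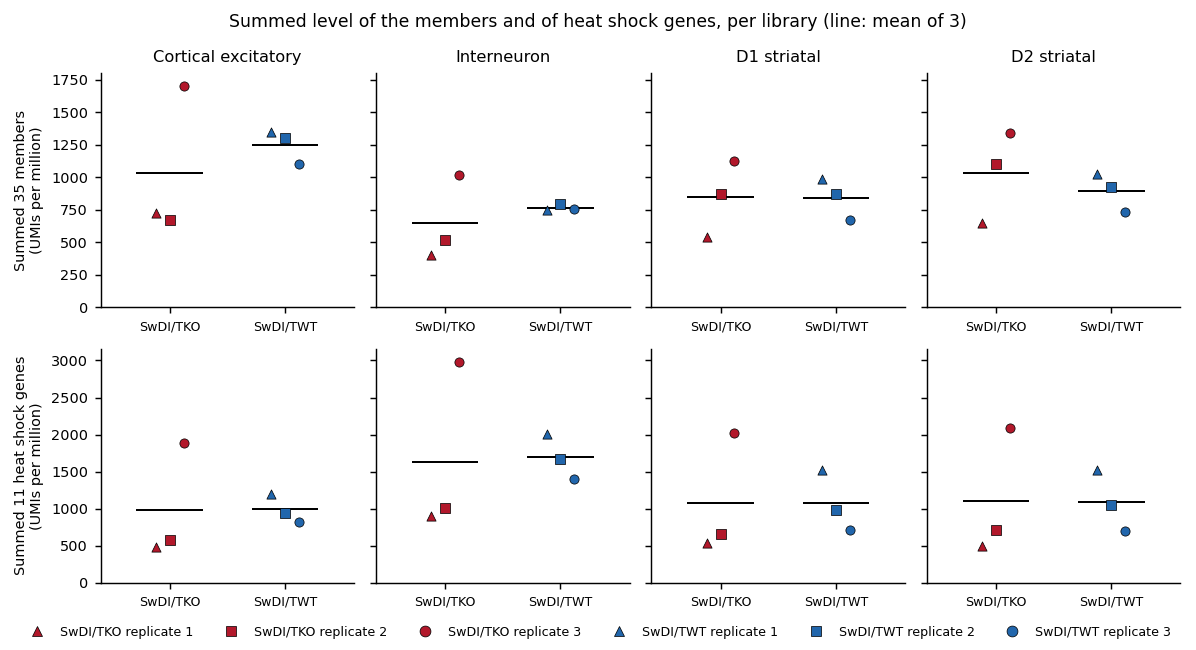
Unscaled CPM taken by the 35 members (top) and by 11 heat shock genes (bottom) in 4 neuronal classes, 1 point per library and a line at the mean of 3. SwDI/TKO replicate 3 is the highest library in all 8 panels, and SwDI/TKO replicate 1 is the lowest in 7 of them. The excitatory sum of the members is lowest in SwDI/TKO replicate 2, and in SwDI/TKO replicate 1 once Homer1 is left out.

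Vgf was the one member lower in SwDI/TKO without overlap in 3 of the 4 neuronal classes over 6 libraries. In excitatory neurons it had 51.2, 40.4 and 81.8 CPM in SwDI/TKO replicates 1 to 3, against 132.5, 110.1 and 88.1 CPM in SwDI/TWT replicates 1 to 3, and the groups did not overlap (log2 change -0.94, SE 0.34, edgeR adjusted p = 0.68). In interneurons it had 121.7, 74.2 and 196.9 CPM, against 261.9, 271.6 and 295.9 CPM, again without overlap (-1.08, SE 0.37, edgeR adjusted p = 0.60). In D1 neurons it had 57.0, 38.6 and 94.1 CPM, against 143.9, 101.4 and 105.3 CPM in SwDI/TWT neurons, without overlap (-0.87, SE 0.37). Only in D2 neurons did a SwDI/TKO library reach into the SwDI/TWT range, with 34.7, 32.2 and 97.3 CPM, against 114.4, 108.9 and 73.5 CPM (-0.83, SE 0.47). None of these 4 differences passed the adjusted threshold. Non-overlap with SwDI/TKO lower was found for 5.48% of all genes in excitatory neurons, 5.77% in interneurons, 5.52% in D1 and 5.2% in D2 neurons. Among the members tested it was found for 2 of 32, 1 of 16, 1 of 19 and 0 of 18, so the counts were near those shares. The classes come from the same 6 mice and are not separate tests. Over 5 libraries Vgf and Tiparp were again the members without overlap in excitatory neurons, both lower, where 9.15% of all genes were lower and 8.63% higher without overlap. Over 5 libraries the log2 changes of Vgf were -0.87, -1.05, -0.74 and -0.58 in excitatory neurons, interneurons, D1 and D2 neurons.

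Other values moved beside Vgf. The share of oligodendrocyte nuclei with a Vgf UMI, a reading of free neuronal RNA, was 5.96%, 2.35% and 3.68% in SwDI/TKO libraries, against 2.82%, 5.06% and 4.32% in SwDI/TWT libraries, where the median nucleus held 775.5 to 1598 UMIs. Excitatory nuclei were deeper, with medians of 2697 to 8602 UMIs, and their share was 22.6%, 12.1% and 28.3%, against 29.1%, 25.8% and 20.3%. After every nucleus was thinned to 1000 UMIs it was 3.39%, 4.09% and 8.05%, against 11.7%, 10.5% and 6.73%. Sst, the peptide of an interneuron subtype and no member of the list, had 245, 690 and 626 unscaled CPM in the SwDI/TKO interneuron class, against 1249, 1634 and 1749 in the SwDI/TWT one. The part of interneuron make-up in the Vgf difference was not tested. Tiparp was the only other member without overlap in excitatory neurons, with 11.5, 9.63 and 25.6 CPM in SwDI/TKO libraries, against 29.5, 28.5 and 28.4 CPM in SwDI/TWT libraries (-0.92, SE 0.40, edgeR adjusted p = 0.68). Over all nuclei the members without overlap over 6 libraries were Vgf (57.8, 46.3 and 102.2 CPM, against 132.8, 137.2 and 113.7) and Maff (1.32, 1.6 and 1.38 CPM, against 2.48, 1.65 and 1.78), both lower in SwDI/TKO, where 5.36% of all genes were.

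Over all nuclei 30 of the 35 members were lower in SwDI/TKO over 6 libraries (median log2 change -0.24), where 45.6% of all genes were, and 22 over 5 libraries (median -0.04), where 47.4% were. When SwDI/TKO replicate 3 was left out, 31 were lower (median -0.77), where 48.5% of all genes were, and 10 had an unadjusted edgeR p under 0.05, where 14.6% did. Without SwDI/TWT replicate 1, 17 were lower and 18 higher (median 0.01). The leading genes of each role had the order of libraries seen in excitatory neurons only in part. Jund had 31.4, 68.0 and 104 CPM in SwDI/TKO libraries, against 90.7, 68.2 and 52.7 CPM in SwDI/TWT libraries, Junb 19.5, 39.9 and 84.9, against 69.4, 47.4 and 34.8, and Btg2 20.0, 20.1 and 73.5, against 54.6, 32.8 and 34.7. In these 3 SwDI/TKO replicate 3 was the highest library and replicate 1 the lowest. Egr1 had 14.9, 18.4 and 57.3 CPM, against 38.9, 28.9 and 26.5 CPM, and Egr3 12.3, 12.6 and 39.7, against 40.8, 24.9 and 19.9. Nr4a1 had 42.7, 28.5 and 45.2 CPM, against 55.2, 38.7 and 30.9 CPM, and Nr4a2 10.7, 15 and 17.3, against 15.1, 20.7 and 25.5. Npas4 had 5.89, 29.2 and 31.0 CPM, against 29.4, 19.5 and 26.5 CPM, and Klf2, a factor best known from vessel walls and T cells, 5.59, 3.01 and 11.4, against 9.33, 5.03 and 8.03. Per1, a clock gene that also responds to light and cyclic AMP, had 35.9, 66.3 and 63.3 CPM, against 53.4, 59.0 and 49.5 CPM, and Homer1 337, 157 and 179, against 203, 193 and 211. Homer1 was highest in SwDI/TKO replicate 1 and lower in the other 2 SwDI/TKO libraries than in any SwDI/TWT library, and Tiparp had 22.1, 21.3 and 35.3 CPM, against 50.5, 34.0 and 32.7 CPM. The genotypes overlapped for all of these genes.

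**Figure D4:**
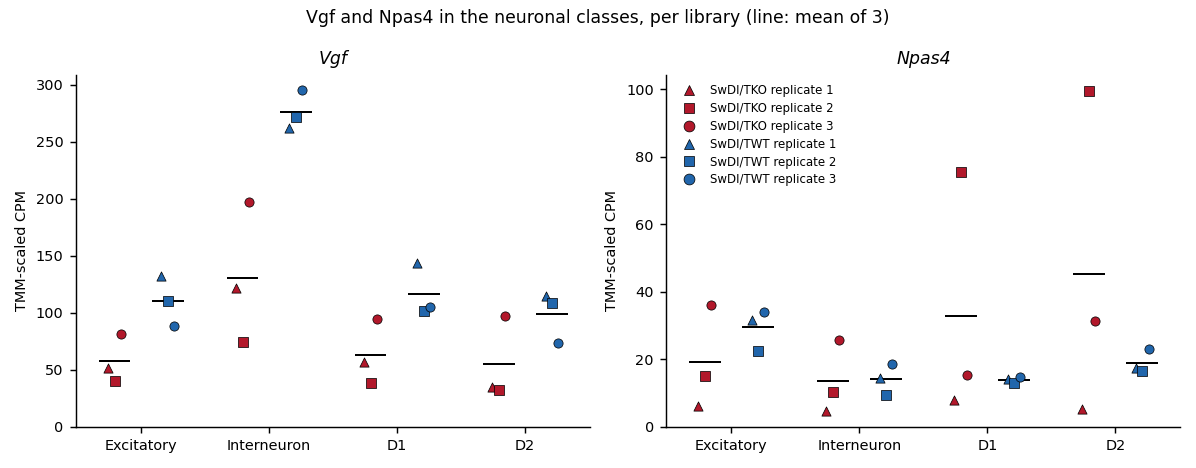
Normalized level (TMM-scaled CPM, linear axis from 0) of Vgf and Npas4 in 4 neuronal classes, 1 point per library and a line at the mean of 3, SwDI/TKO in red left of SwDI/TWT in blue. Vgf is lower in all SwDI/TKO libraries except replicate 3 in D2 neurons, and Npas4 stands at 75.4 and 99.6 CPM in the D1 and D2 neurons of SwDI/TKO replicate 2.

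In D1 neurons the direction of most members depended on which libraries were compared. In D2 neurons more members were higher than lower in SwDI/TKO, except in the fit without SwDI/TKO replicate 3. In D1 neurons 9 of 19 members tested were higher in SwDI/TKO over 6 libraries, where 45.6% of all genes were lower. Over 5 libraries 19 of 24 were higher (median log2 change 0.42), where 45.5% of all genes were lower. In D2 neurons 12 of 18 were higher over 6 libraries (median 0.27) and 16 of 22 over 5 (median 0.59), where 45.6% and 48.3% of all genes were lower. In D1 neurons 13 of 19 members were lower without SwDI/TKO replicate 3 (median -0.39), where 49.9% of all genes were, and 9 of 18 in D2 neurons (median -0.05), where 48.9% were. Without SwDI/TWT replicate 3, 16 of 23 were lower in D1 neurons (median -0.12). No member had an unadjusted edgeR p under 0.05 in D2 neurons over 6 libraries, where 4.27% of all genes did, and 8 had one over 5 libraries (6 with DESeq2), where 3.16% of all genes did. Their adjusted p was 0.998. Fos, Fosb, Fosl2, Jun and Btg2 passed the filter on low counts in D2 neurons only over the 5 libraries, so that count does not describe all 35 members. In D1 neurons 1 member, Vgf, had an unadjusted p under 0.05 over 6 libraries, where 4.49% of all genes did, and none was higher without overlap, where 5.13% of all genes were. Over 5 libraries Vgf was lower without overlap, where 8.83% of all genes were, and Dusp6, Jun, Npas4 and Sik1 were higher, where 9.66% were. In D2 neurons no tested member lacked overlap over 6 libraries, where 4.95% of all genes were higher without it. The 5-library comparison rests on SwDI/TKO replicates 2 and 3 alone. A gene high in both of them passes the low-count filter of that fit, even where it is low in SwDI/TWT. More members were tested over 5 libraries than over 6 in D1 and D2 neurons, so the counts do not cover the same genes. The 5-library counts of members higher in SwDI/TKO can be partly set by the filter in both classes.

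Npas4 was high in the striatal neurons of 1 library. In D1 neurons it had 7.86, 75.4 and 15.4 CPM in SwDI/TKO replicates 1 to 3, against 14.1, 12.9 and 14.7 CPM in SwDI/TWT replicates 1 to 3, from 8, 82 and 44 UMIs, against 13, 23 and 21. In D2 neurons it had 5.14, 99.6 and 31.3 CPM, against 17.3, 16.6 and 23.0 CPM (log2 change over 5 libraries 1.73, SE 0.46). SwDI/TKO replicate 2 was several times above every other library in both classes, while in its excitatory neurons Npas4 was below every SwDI/TWT library. Of D1 nuclei 3.38%, 20.2% and 4.65% held an Npas4 UMI in SwDI/TKO libraries, against 3.74%, 3.35% and 3.53% in SwDI/TWT libraries, where the oligodendrocyte shares were 0.14% to 0.88% over the 6 libraries. Thinned to 1000 UMIs the D1 shares were 0.49%, 8.11% and 1.29%, against 0.91%, 1.93% and 2.10%. Without SwDI/TKO replicate 2 the difference between excitatory and striatal neurons turned round for Npas4, from a log2 difference of -0.15 that did not pass to 0.55 with an adjusted p of 0.022.

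Other members of the D2 class differed in how far they were tied to 1 library. Btg2 had 8.99, 10.4 and 35.9 CPM in SwDI/TKO D2 neurons, against 4.32, 0.83 and 3.44 CPM in SwDI/TWT ones, without overlap. It was tested over 5 libraries only (3.27, SE 0.70). After thinning, 1, 1 and 11 D2 nuclei of SwDI/TKO replicates 1 to 3 held a Btg2 UMI, against 0, 1 and 1 in SwDI/TWT. The Btg2 difference thus rests on few nuclei, most of them from SwDI/TKO replicate 3. Junb had 16.7, 107 and 85.7 CPM, against 69.1, 42.4 and 26.4 CPM, so that SwDI/TKO replicate 1 was lowest and the other 2 highest. Nr4a1 had 33.4, 63.3 and 46.9 CPM, against 43.2, 20.0 and 19.5 CPM (log2 change over 6 libraries 0.86, SE 0.42). Over 5 libraries 8 of the 22 members tested did not overlap with SwDI/TKO higher (Btg2, Dusp1, Fosb, Jun, Junb, Jund, Npas4 and Nr4a1), where 8.43% of all genes did, and 1, Tiparp, with SwDI/TKO lower, where 9.17% did. Btg2, Fosb and Jun passed the filter on low counts only over the 5 libraries, where high counts in SwDI/TKO replicates 2 and 3 are enough to pass. Their place among the members higher in SwDI/TKO was therefore partly set by the filter. Egr3 had 18, 19.7 and 46.3 CPM in SwDI/TKO D2 neurons, against 58.3, 31.6 and 34.4 CPM in SwDI/TWT ones, and overlapped. In D1 neurons Junb had 20.6, 53.3 and 68.6 CPM, against 61.7, 38.1 and 16.1 CPM, Nr4a1 13.8, 24.8 and 30.8, against 43.3, 21.3 and 12.6, and Btg2 5.89, 8.28 and 27.6, against 17.3, 6.72 and 5.62. All 3 overlapped between the genotypes. Arl5b in D1 neurons had 28.5, 8.28 and 10.1 CPM, against 8.65, 5.04 and 7.72 CPM, again with its high value in SwDI/TKO replicate 1.

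In interneurons the direction also depended on the libraries. Of the 16 members tested over 6 libraries 10 were lower in SwDI/TKO (median log2 change -0.08), where 45.7% of all genes were, and of 17 over 5 libraries 12 were higher (median 0.16). Of 20 tested without SwDI/TKO replicate 3, 16 were lower (median -0.56), where 49.1% of all genes were, and 5 had an unadjusted edgeR p under 0.05, where 16.7% did. Unadjusted edgeR p was under 0.05 for Vgf and Arl5b over 6 libraries, where 7.36% of all genes reached it, and over 5 libraries for Vgf, Egr1 and Per1, where 3.95% did. Arl5b had 32.8, 10.2 and 14.5 CPM in SwDI/TKO interneurons, against 7.86, 7.29 and 10.2 CPM in SwDI/TWT ones, and its high library was SwDI/TKO replicate 1, where this gene with 22634 intron bases was 2.44 times the mean of the other SwDI/TKO libraries over all nuclei. Junb had 13.2, 28.5 and 58.1 CPM, against 39.3, 40.4 and 21.3 CPM, Btg2 10.3, 17.3 and 24.2, against 26.2, 17.9 and 16.7, Egr3 4.90, 2.03 and 3.23, against 6.55, 7.95 and 4.64, and Nr4a1 29.9, 5.08 and 25.8, against 24.9, 25.8 and 27.8. The genotypes overlapped for each of these 4.

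In glia few members were high enough to test: 7 in astrocytes, 9 in oligodendrocytes, 5 in OPC and 5 in microglia over 6 libraries. The astrocyte values include the 2 clusters with no leading astrocyte marker described above. Jund, an AP-1 subunit with a broad basal level, had 79.5, 157 and 112 CPM in SwDI/TKO astrocytes, against 47.5, 69.0 and 67.3 CPM in SwDI/TWT ones, without overlap (log2 change 0.83, SE 0.40, edgeR adjusted p = 0.57). Without those clusters its levels were 66.6, 156 and 112 CPM, against 39.6, 68.8 and 66.9 CPM, and the groups overlapped (0.81). With them it was the only one of the 7 that did not overlap, where 5.49% of all genes were higher in SwDI/TKO without overlap and 5.7% lower. No member had an unadjusted p under 0.05 in astrocytes with edgeR or DESeq2, where 8.71% of all genes did. Over 5 libraries 5 of 9 members tested were lower in SwDI/TKO astrocytes, where 50.2% of all genes were. The second gene by p in astrocytes was Homer1, with 103, 72.3 and 35.3 CPM in SwDI/TKO, against 67.3, 44.7 and 15.5 CPM in SwDI/TWT, and it overlapped. Arc in oligodendrocytes had 9.71, 20.8 and 4.98 CPM in SwDI/TKO, against 27.2, 27.7 and 21.6 CPM in SwDI/TWT (-1.13, SE 0.47, edgeR adjusted p = 0.77), where 4.33% of genes were lower without overlap and 6.06% had a p under 0.05. Arc was held by 0.44% to 2.23% of oligodendrocyte nuclei, and the part of free RNA from neurons in that value was not tested. Jun in oligodendrocytes had 46.4, 123 and 26.5 CPM, against 47.2, 29.4 and 37.8 CPM, with 1 high library, SwDI/TKO replicate 2. In OPC Jund had 49.1, 98.2 and 167 CPM, against 98.3, 51.3 and 49.2 CPM, and Nr4a1 had 47.0, 90.1 and 71.0 CPM, against 80.4, 34.2 and 28.1 CPM. Both overlapped, and 0 of the 5 members tested in OPC had an unadjusted p under 0.05 with edgeR or DESeq2, where 6.18% of all genes did. Over 5 libraries 1 of 3, Jund (1.07), had one, where 3.88% did. In microglia, the cells that express Trem2, 0 of 5 members had an unadjusted edgeR p under 0.05 with edgeR or DESeq2, where 5.72% of all genes did. Over 5 libraries Junb (0.78) and Ier5 (0.82) had one, where 4.6% of all genes did. Dusp6 and Ier5 had the smallest p over 6 libraries. Ier5, a regulator of heat shock factor activity, had 95.5, 243 and 171 CPM in SwDI/TKO microglia, against 170, 77.6 and 96.8 CPM in SwDI/TWT ones (0.53, SE 0.45).

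An interaction of class and genotype, fitted with the library as a block, tested whether the genotype difference varied between classes. No member passed in excitatory neurons against interneurons, in D1 against D2 neurons or in excitatory neurons against oligodendrocytes over 6 libraries, where 0%, 0.00967% and 0% of all genes did. None passed over 5 libraries either, where 0%, 0% and 0.0164% of all genes did. Without SwDI/TKO replicate 3, 4 members passed in excitatory neurons against oligodendrocytes, where 0.971% of all genes did. These were Jun (log2 difference of the genotype changes -2.50), Dusp1 (-2.21), Jund (-1.30) and Inhba (2.42). The genotype changes of excitatory and D2 neurons were not tested against each other.

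Pooled over libraries, excitatory nuclei with 1 core gene held another more often than nuclei without it. Every nucleus was thinned to 1000 UMIs, which left out 9, 35 and 0 shallower excitatory nuclei in SwDI/TKO libraries and 21, 13 and 6 in SwDI/TWT libraries, and the core genes with a UMI were counted. In excitatory neurons 0.75%, 0.68% and 10.5% of nuclei held at least 2 of the 14 core genes in SwDI/TKO libraries, against 7.92%, 5.30% and 3.23% in SwDI/TWT libraries (mean 3.97% ± 5.64 against 5.48% ± 2.35, SD, n = 3 each). Unthinned the shares were 24.5%, 8.18% and 37.1%, against 25.8%, 20.1% and 13.5%. After thinning SwDI/TKO replicate 3 was the highest and replicates 1 and 2 the lowest, and the mean difference was smaller than the spread among SwDI/TKO libraries. Nuclei with a Fos UMI held another core gene in 54.4% of 57 cases, against 18.6% of 6343 nuclei without one, pooled over libraries of unequal level. The same comparison gave 61.4% against 18.8% for Fosb, 41.0% against 17.3% for Btg2, 39.6% against 18.1% for Npas4 and 32.4% against 15.7% for Nr4a1. The share among nuclei without a Fos UMI itself ran from 11.5% in SwDI/TKO replicate 1 to 30.3% in SwDI/TKO replicate 3. In SwDI/TKO replicate 3 and in each SwDI/TWT library the share was higher with the gene than without it for all of these genes and for Junb and Egr1. In SwDI/TKO replicates 1 and 2 it was not higher for every gene: in replicate 2, 3.57% of 28 nuclei with a Junb UMI held another core gene, against 10.03% of 1147 without one, and 0 of 12 nuclei with Btg2 and 0 of 8 with Egr1 did.

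In the other neuronal classes the share with at least 2 core genes after thinning was lower than in excitatory neurons in SwDI/TKO replicate 3 and in every SwDI/TWT library. It was 0.60%, 1.59% and 5.6% of interneurons in SwDI/TKO libraries, against 2.35%, 2.54% and 2.70% in SwDI/TWT libraries. It was 0.49%, 1.80% and 5.43% of D1 neurons, against 5.17%, 1.93% and 1.90%, and 0.70%, 4.92% and 6.74% of D2 neurons, against 4.73%, 2.0% and 1.52%. Again SwDI/TKO replicate 3 was the highest and replicate 1 the lowest library in each of these classes. Oligodendrocytes gave 0.54%, 0% and 0%, against 2.58%, 1.55% and 0%, from 129 to 1108 nuclei that reached 1000 UMIs. Outside SwDI/TKO replicate 1 these nuclei were a minority of the class. Their own transcription of core genes cannot be told apart from free RNA of neurons in these shares. The excitatory shares of SwDI/TKO replicates 1 and 2 were within the oligodendrocyte range.

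**Figure D5:**
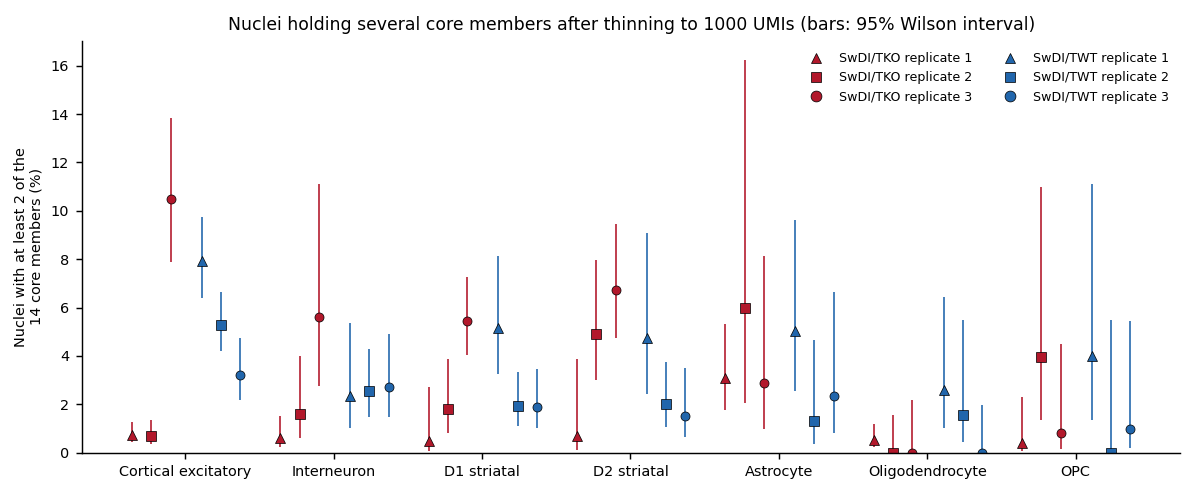
Percent of nuclei with UMIs from at least 2 of the 14 core genes after thinning to 1000 UMIs, per class and library, with 95% Wilson intervals that cover counting error only. In excitatory neurons SwDI/TKO replicate 3 stands at 10.5% and replicates 1 and 2 at 0.75% and 0.68%, on both sides of the SwDI/TWT libraries. Microglia are not drawn because outside SwDI/TKO replicate 1 only 9 to 43 of their nuclei per library reached 1000 UMIs.

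Another pair of lists was described in the same way, both chosen with earlier results of the same data known. Of 30 other activity-regulated genes 26 were tested in excitatory neurons: none passed, 20 were lower in SwDI/TKO and the median log2 change was -0.25. Of 30 genes of upstream signalling (receptors, channels, kinases and transcription factors that induce the members) all were tested: none passed, 25 were higher and the median was 0.34. Over 5 libraries the medians were -0.14 and 0.08, with 18 of 27 lower in the first list and 18 of 30 higher in the second. Of 10 heat shock genes tested none passed, and 5 were lower, with a median of -0.04. Over all genes tested the median was 0.06 over 6 libraries and 0.01 over 5.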

How the data were processed

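Single-nucleus RNA sequencing of frontal lobe nuclei gave 1 UMI count matrix per mouse, 3 SwDI/TKO and 3 SwDI/TWT. The authors deposited raw UMI counts per gene and barcode, made per the file headers with Cell Ranger 7.0.0 for SwDI/TKO replicate 1 and 6.1.2 for the other 5 libraries. The submitters' processing notes also name Seurat and mm10. The intron setting and annotation of either version are stated in no source used here, and a setting that counts introns raises genes with long introns. Replicate numbers were given in accession order and pair nothing.

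Of 39752 barcodes the 34281 with 200 genes or more and no more than 5% of UMIs from mitochondrial genes entered the analysis, and Scrublet at an expected rate of 6% removed 1146 as doublets. Library pairs shared 5 to 14 kept barcodes. Each library was clustered alone with scanpy 1.11.5 and leidenalg 0.10.2 (2000 variable genes without the 35 members, 30 components, 15 neighbours, resolution 2), in Python 3.11.15 with numpy 2.4.6, pandas 2.3.3, scipy 1.17.1 and scikit-learn 1.9.0. Clusters were named from marker lists with thresholds set after seeing the data, and 21.2% to 39.9% of nuclei stayed unnamed. Differences from the authors' own annotation may come from these rebuilt names.

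Counts were summed per library and class (at least 20 nuclei) and tested with edgeR 4.0.16 in R 4.3.3 with limma 3.58.1 (quasi-likelihood, TMM scaling, filterByExpr, Benjamini-Hochberg over all genes tested, threshold 0.05), and DESeq2 1.42.0 as an alternative. The DESeq2 fit in 5 libraries and the astrocyte class without 2 clusters were chosen after seeing the data. The edgeR fits were tested on simulated summed counts, for part of the comparisons. The clustering, class naming, thinning, promoter search and DESeq2 fits were not tested in this way. Levels of single genes are TMM-scaled CPM, and summed and marker levels are CPM without TMM scaling. Shares used nuclei thinned to 1000 UMIs, and Wilson intervals at 95% cover counting error only. Values in every library were printed for the core set in excitatory neurons, its 4 highest genes in the other neuronal classes, the 2 genes of smallest p in each class, and the 2 highest genes of each role over all nuclei. Genes named for other reasons were chosen after their values were seen. The members and lists were chosen with earlier results of these data known. Figures were drawn with matplotlib 3.10.9.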

Additional observations from a re-analysis of the deposited data

How the results depend on the processing

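No paired analysis was possible because the labels give no replicate numbers. Of 541 alternatives for the 56 called class differences, 505 kept the direction and the call, 34 lost the call and 2 turned round. With classes from a marker gate Arl5b between excitatory neurons and interneurons was -0.076 and Fosl2 between excitatory and striatal neurons was -0.30. Without SwDI/TKO replicate 2 Npas4 between excitatory and striatal neurons was 0.55 (main value -0.15), and it ran from -0.31 to 0.55 when 1 library was left out. The number of members lower in excitatory neurons than in interneurons was 1 to 2 when 1 library was left out, where the full fit gave 3. With the marker gate 1 member was higher in D1 than in D2 neurons (Nr4a2), where 1.37% of genes were, and 4 were lower in excitatory than in striatal neurons, where 19.3% were. With no filter on low counts 2 members were lower in D1 than in D2 neurons (Fos and Nr4a1), where 0.517% of genes were. That setting called 537 genes between genotypes in astrocytes (2.87%), 306 in oligodendrocytes, 428 in OPC and 500 in microglia, among them 1 member, Nr4a2 in astrocytes, with 78.2, 0 and 11.8 CPM in SwDI/TKO, against 7.92, 4.06 and 5.18 CPM in SwDI/TWT, from 61 UMIs in SwDI/TKO replicate 1. Without the 2 astrocyte clusters that had no leading astrocyte marker, that library had 6 UMIs (8.5 CPM) and 0 members were called. Without SwDI/TKO replicate 3 the class by genotype test of excitatory neurons against oligodendrocytes called 4 members, where the full fit called 0. The cause of these changes was not tested. Unthinned, the mean share of nuclei with at least 2 core genes was 23.3% in SwDI/TKO and 19.8% in SwDI/TWT excitatory neurons, 13.2% and 9.31% in interneurons, 12.6% and 8.89% in D1 neurons and 18.6% and 9.78% in D2 neurons. With the marker gate the SwDI/TWT interneuron share was 3.08%, and the summed member level of SwDI/TWT libraries was 1006 unscaled CPM in excitatory neurons and 860 in interneurons. For single members named between genotypes 576 of 643 alternatives kept the direction, none of them called, and 67 had the other sign, also uncalled. The groups had 3 mice each, and low genes in glia were not tested.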

Other observations

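Vascular nuclei (36 to 157 per library) held some of the core genes at high levels and were not part of the comparisons. Egr1 had 303, 317 and 750 unscaled CPM there in SwDI/TKO replicates 1 to 3, against 707, 297 and 679 CPM in SwDI/TWT replicates 1 to 3. Btg2 had 494, 332 and 1342 CPM, against 566, 264 and 243 CPM, and Fos 97.7, 106 and 364 CPM, against 189, 110 and 175 CPM. SwDI/TKO replicate 3, with only 36 vascular nuclei, was the highest library for these 3, as it was for the neuronal sums, and the genotypes overlapped. Some other core genes peaked elsewhere or were near 0. Ier2 had 145, 15.1 and 318 CPM, against 613, 88.1 and 136 CPM. Dusp1 had 57.6, 136 and 136 CPM, against 189, 77.1 and 165 CPM. Both were highest in SwDI/TWT replicate 1. Npas4 ran from 0 to 22.0 CPM and Egr4 from 0 to 12.5 CPM. After thinning to 1000 UMIs 35%, 14.8% and 43.5% of vascular nuclei held at least 2 core genes in SwDI/TKO libraries, against 42.1%, 24.2% and 34.1% in SwDI/TWT libraries. Small clusters of 12 nuclei in SwDI/TKO replicate 1, 17 in SwDI/TKO replicate 3 and 8 in SwDI/TWT replicate 1 with Flt1 and Klf2 among their leading genes stayed unnamed and are not in this class.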
